A study of Mus musculus with 8 samples.

Results

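Intermediate filaments are the rope-like part of the cytoskeleton, and the lamins are the members of the same protein family that line the inside of the nuclear envelope. The 10 genes described here were taken by symbol from the normalized-count table: Vim, Des and Nes, which code for vimentin, desmin and nestin; the keratin genes Krt8, Krt18, Krt19 and Krt7; and the lamin genes Lmna, Lmnb1 and Lmnb2. They are 10 of 49585 genes and 36 of 122968 isoforms listed. The cells were LEC, an endothelial line isolated from liver sinusoids of C57BL/6 mice and immortalized with SV40. In siL-DHX15-LEC (4 libraries) the RNA helicase gene Dhx15 was silenced by a lentiviral short hairpin RNA that doxycycline switches on. WT-LEC (4 libraries) were wild-type cells labelled untreated. No library was labelled as carrying the vector and doxycycline without silencing, so their effects cannot be told apart from that of silencing. The labels do not say that libraries of 1 condition came from separate cultures. The p-values therefore measure the spread between these libraries, which may be technical.

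As background, vimentin and desmin form filaments on their own, with vimentin typical of mesenchymal and endothelial cells and desmin of muscle and stellate cells, whereas nestin joins vimentin filaments and is found in progenitor and growing endothelial cells. Keratins work as obligate pairs of a type II chain (Krt8 or Krt7) with a type I chain (Krt18 or Krt19). In liver, hepatocytes make Krt8 and Krt18, bile duct cells add Krt7 and Krt19, and mesothelial cells carry simple keratins together with vimentin. Lmna gives lamin A and lamin C by alternative splicing, while Lmnb1 and Lmnb2 give the B-type lamins, which keep the lipid anchor that mature lamin A loses.

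The libraries held from 77335734 to 149258495 assigned reads in siL-DHX15-LEC and from 118830467 to 152045693 in WT-LEC, counted back from the normalized values. Dhx15 had 8936, 7956, 8930 and 10051 normalized counts in siL-DHX15-LEC, against 26824, 27952, 26430 and 28006 in WT-LEC. Its log2 fold change was −1.61 (SE 0.059, adjusted p = 3.32e-08 by limma), so the targeted gene followed the labels in all 8 libraries. The 2 conditions ran on different sequencing lanes, and a lane effect cannot be told apart from that of silencing. Of 15 endothelial markers, 8 averaged under 10 normalized counts, among them the defining genes Cdh5, Tie1, Emcn and Cldn5, while Kdr averaged 776 ± 23.5 in siL-DHX15-LEC and 746 ± 55.6 in WT-LEC (SD, n = 4 each). Of 12 hepatocyte markers all 12 were lower in siL-DHX15-LEC, with summed levels of 5409 to 6098 against 7711 to 8423 normalized counts in WT-LEC, and most of that sum was Trf (5493 ± 357 in siL-DHX15-LEC, 6582 ± 349 in WT-LEC, SD, n = 4 each). The other 11 summed to 188 to 337 in siL-DHX15-LEC and 1493 to 1627 in WT-LEC, and Alb, which codes for albumin, had at most 1.89 normalized counts in siL-DHX15-LEC and 522 to 658 in WT-LEC. Whether the cells behind these marker counts contribute to the results below was not tested.

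The lamin genes differ from each other in ways that their transcripts show. Lmna-001 (665 codons) is the lamin A precursor and Lmna-002 (574 codons) is lamin C. They share 1704 coding bases up to the end of exon 10, where lamin A continues into exon 11 and lamin C reads on into the intron. The stretch around that point is shown because the shares of the 2 isoforms rest on it, and capitals mark the bases after the shared exon.
Lmna-001: caccaccgtGGTTCCCACTGCAGCGGCTCG
Lmna-002: caccaccgtGTGAGTGGCAGCCGCCGCTGA
The first capitals of Lmna-002 are the splice donor that Lmna-001 removes, and lamin C stops 21 bases on, stop codon included, whereas lamin A goes on for 294. A further pair of stretches shows the ends of the coding sequences of a lamin A and a B-type lamin transcript, with the last 4 codons and the stop codon in capitals.
Lmna-001 end: cagagctcccagaacTGCAGCATCATGTAA
Lmnb2-201 end: actacctcaaggggcTGCCGACTGATGTGA
In both, TGC, a cysteine codon, opens the motif to which the farnesyl anchor is attached, and Lmna-002 ends before it. All are read 5′ to 3′ from GENCODE M21 transcripts of GRCm38 (Lmna on chromosome 3, Lmnb2 on chromosome 10).

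Levels were compared between genes per length, as normalized counts per kb of isoform. In wild-type cells Vim stood first, and 3 simple keratins and all lamins were abundant, while Nes, Des and Krt7 were low. Vim averaged 249114 ± 8235 per kb in siL-DHX15-LEC and 199338 ± 9986 per kb in WT-LEC (SD, n = 4 each), and in WT-LEC only 34 of 16475 genes with a level stood above it. In WT-LEC the next were Krt18 at 49573 ± 3643, Krt8 at 48456 ± 3587 and Lmna at 47221 ± 2779 per kb, and the values of these 3 neighbours overlapped, so that their order is not resolved. Krt19 followed at 24483 ± 1746 per kb in WT-LEC. Lmnb1 had 7007 ± 383 and Lmnb2 2877 ± 90.2 per kb, and from Krt19 downward no neighbours in the order overlapped. The lowest were Nes at 413 ± 18.8, Des at 252 ± 14.8 and Krt7 at 18.7 ± 7.47 per kb in WT-LEC. These levels sum all isoforms, short noncoding ones included. With protein-coding isoforms alone the order in WT-LEC was the same, but Vim was at 151547, Krt19 at 17333 and Des at 128 per kb. Krt8 and Krt18 lie as neighbours on chromosome 15 (GRCm38) with start sites 23698 bp apart. The 10 genes together took 0.617% ± 0.0223 of all normalized counts in siL-DHX15-LEC and 0.541% ± 0.0218 in WT-LEC (SD, n = 4 each), and Vim alone took 0.325% in siL-DHX15-LEC and 0.269% in WT-LEC.

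**Figure D1:**
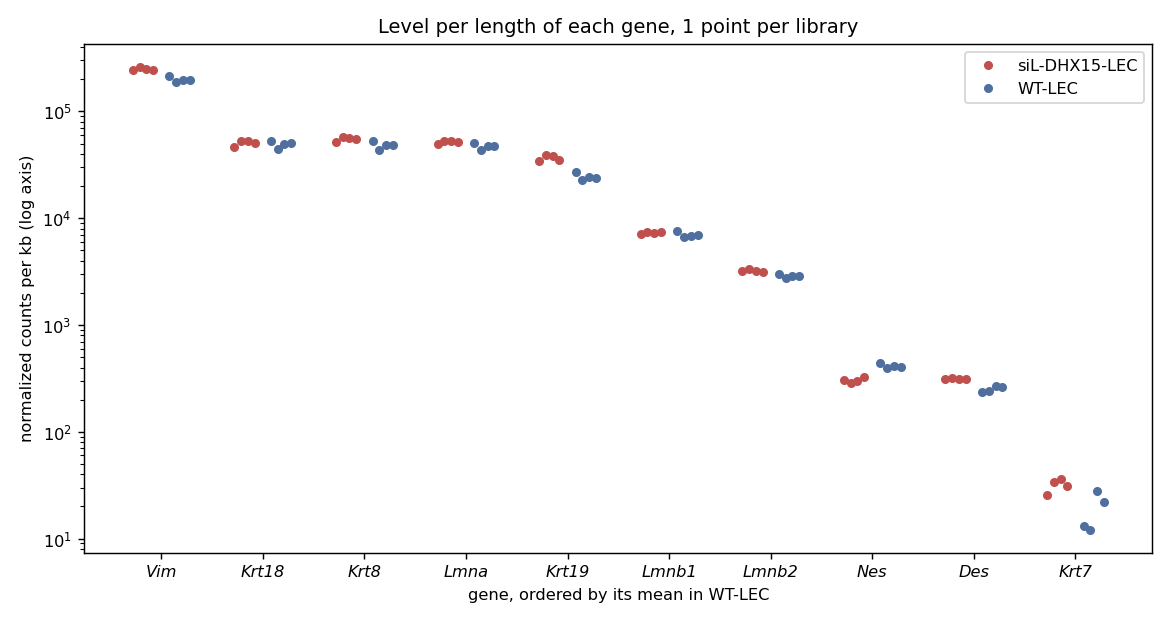
Level per length of each gene in normalized counts per kb (log axis), 1 point per library, siL-DHX15-LEC left of WT-LEC, with genes in the order of their WT-LEC mean. Vim lies at or above 190280 per kb in all 8 libraries, the WT-LEC points of Krt18, Krt8 and Lmna overlap, and Krt7 lies lowest.

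With Dhx15 silenced, 8 of the 10 genes passed the test, 7 of them higher and 1 lower, where 33.2% of the 16497 genes tested were called (18.4% higher and 14.8% lower). The members' median log2 fold change was 0.18, beside −0.0094 over all genes tested. In 5 of the 10 (Vim, Nes, Des, Krt19 and Lmnb2) no silenced library overlapped with a wild-type one, against 30.8% of all genes. All 10 passed the filter of a mean of at least 10. Fewer cells of a type and less RNA per cell cannot be told apart in bulk libraries. The count depends on scaling: the authors' size factors left totals of 129090680 to 131309870 in siL-DHX15-LEC and 120698230 to 126931150 in WT-LEC. With equal totals those same 5 genes were called, 4 higher and 1 lower. Over all genes 5758 of 16502 were then called, 1861 higher and 3897 lower. So 32.3% of the calls were higher with equal totals, against 55.5% in the deposited scaling. Counts with equal totals given below for gene lists belong beside these, not beside 18.4% and 14.8%. The members' count was also 5 without siL-DHX15-LEC replicate 3.

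**Figure D2:**
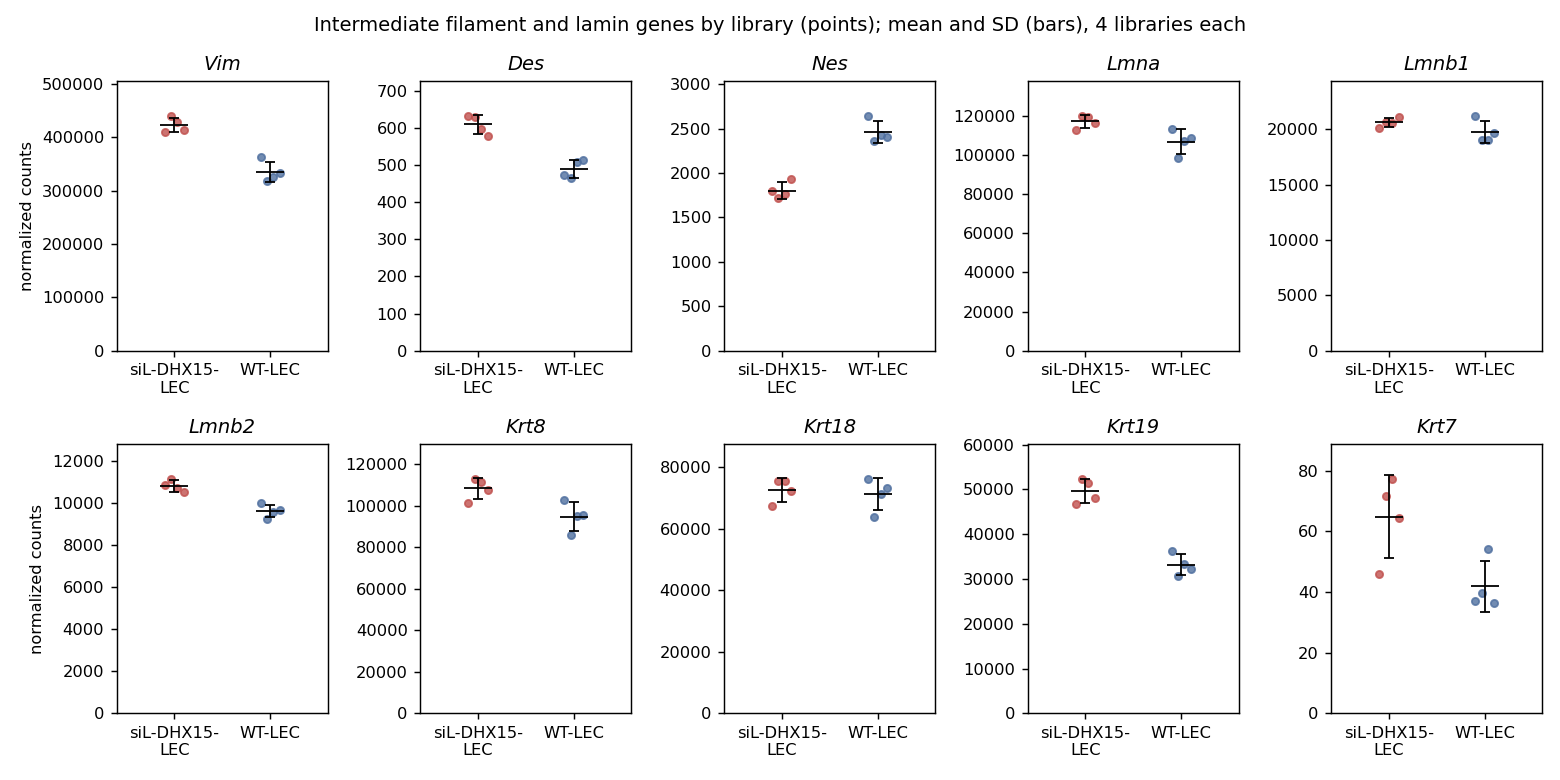
Normalized counts of each gene by library (points), siL-DHX15-LEC left of WT-LEC, with the mean and SD of 4 libraries (bars) and every axis starting at 0. Vim, Des, Lmnb2 and Krt19 lie higher and Nes lower in siL-DHX15-LEC with no overlap, while the points of Lmna, Lmnb1, Krt8, Krt18 and Krt7 overlap.

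Of the filament genes that need no keratin partner, vimentin and desmin transcripts rose and nestin transcripts fell. Vim (chr2:13573927-13582826, plus strand, GRCm38) had 410745, 439584, 428119 and 414131 normalized counts in siL-DHX15-LEC, against 362328, 318257, 326162 and 333114 in WT-LEC. The lowest silenced library lay above the highest wild-type library, WT-LEC replicate 1. Its level was 1.26-fold higher in siL-DHX15-LEC (log2 fold change 0.34, 95% interval 0.23 to 0.44, SE 0.048, adjusted p = 0.000392 by limma), and all 18 alternative settings kept the call. Des, a muscle and stellate cell filament gene of far lower level (chr1:75360329-75368579, plus strand), had 632, 631, 597 and 578 normalized counts in siL-DHX15-LEC, against 473, 466, 507 and 512 in WT-LEC. It was 1.24-fold higher (95% interval 1.13 to 1.37, log2 fold change 0.31, SE 0.063, adjusted p = 0.00300 by limma), close in size to the change of Vim. Nes (chr3:87971078-87980451, plus strand) went the other way, with 1803, 1715, 1762 and 1932 normalized counts in siL-DHX15-LEC, against 2641, 2358, 2430 and 2409 in WT-LEC. Every silenced library was below every wild-type one, at 0.733 times the wild-type level (95% interval 0.677 to 0.794, log2 fold change −0.45, SE 0.053, adjusted p = 0.000132 by limma).

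The balance of nestin to vimentin, its filament partner, differed between the conditions in every library. Nes per kb over Vim per kb was 0.00127, 0.00111, 0.00119 and 0.00133 in siL-DHX15-LEC, against 0.00206, 0.00208, 0.00211 and 0.00204 in WT-LEC. Such ratios within a library do not depend on the scaling between libraries. This ratio and those given below are among 10 that were chosen after the values of the genes had been seen, so they are descriptions without a test. The ratio of Des to Vim overlapped between conditions, at 0.00126 ± 2.74e-05 in siL-DHX15-LEC and 0.00127 ± 0.000109 in WT-LEC (SD, n = 4 each).

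Among the keratins, the type I gene Krt19 rose most clearly, its type II partner Krt8 rose less, and Krt18 did not pass the test. Krt19 (chr11:100140810-100148665, minus strand, GRCm38) had 46681, 52351, 51544 and 48100 normalized counts in siL-DHX15-LEC, against 36298, 30663, 33439 and 32324 in WT-LEC. No library crossed over, and the level was 49.8% higher (log2 fold change 0.58, 95% interval 0.46 to 0.70, SE 0.055, adjusted p = 3.49e-05 by limma), a change larger than that of 93.4% of the genes tested. Krt8 had 101556, 113013, 111472 and 107586 normalized counts in siL-DHX15-LEC, against 102989, 85851, 94945 and 95723 in WT-LEC. Here siL-DHX15-LEC replicate 1 lay below WT-LEC replicate 1, so the groups overlapped, and the 1.14-fold difference (95% interval 1.05 to 1.24, log2 fold change 0.19, adjusted p = 0.0184 by limma) lost its call with equal totals, without the variance trend and without siL-DHX15-LEC replicate 3, with adjusted p-values of up to 0.0576. A processed copy, Krt8-ps, was listed with 257 to 322 normalized counts in siL-DHX15-LEC and 289 to 527 in WT-LEC, at most 0.512% of Krt8, and how reads were divided between these near-identical copies is uncertain.

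Krt18 had 67401, 75738, 75628 and 72401 normalized counts in siL-DHX15-LEC, against 76258, 64003, 71279 and 73405 in WT-LEC. The groups lay across each other, and the log2 fold change was 0.03 (95% interval −0.09 to 0.16, adjusted p = 0.686 by limma). With equal totals it was −0.03 and without WT-LEC replicate 2 it was −0.02, so no direction can be given. Krt7, the other type II chain and a bile duct keratin, was scarce, with 45.9, 71.6, 77.2 and 64.3 normalized counts in siL-DHX15-LEC, against 37.1, 39.7, 54.3 and 36.4 in WT-LEC. One library of each condition overlapped, and the 1.53-fold difference (95% interval 1.14 to 2.05, log2 fold change 0.61, SE 0.19, adjusted p = 0.0305 by limma) lost its call in 8 of 18 alternatives, including the omission of siL-DHX15-LEC replicate 2 or 3 or of WT-LEC replicate 1, 2 or 4. Its interval was the widest of the 10 genes and its level the lowest.

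The unequal change of the keratins also stood within each library. Krt19 per kb over Krt18 per kb was 0.735, 0.735, 0.720 and 0.703 in siL-DHX15-LEC, against 0.506, 0.511, 0.495 and 0.465 in WT-LEC. The ratio of Krt18 to Krt8 was 0.904, 0.913, 0.924 and 0.917 in siL-DHX15-LEC, against 1.01, 1.02, 1.02 and 1.04 in WT-LEC, with no overlap. The sum of all type I transcripts over that of all type II transcripts was 1.58 ± 0.0130 in siL-DHX15-LEC and 1.53 ± 0.00647 in WT-LEC (SD, n = 4 each). This ratio of sums did not overlap either, at 1.56 to 1.59 in siL-DHX15-LEC and 1.52 to 1.53 in WT-LEC. It differed less between the conditions than the ratio of Krt19 or of Krt18 to a single partner. The sums take in Krt19-002, which has no coding sequence. Krt19 in WT-LEC was 24483 per kb with all isoforms and 17333 with coding ones alone. The ratio of sums is therefore not one of protein chains, and its lack of overlap need not hold for coding isoforms alone. All 4 keratins over Vim overlapped, at 0.573 ± 0.0165 in siL-DHX15-LEC and 0.614 ± 0.0203 in WT-LEC.

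**Figure D3:**
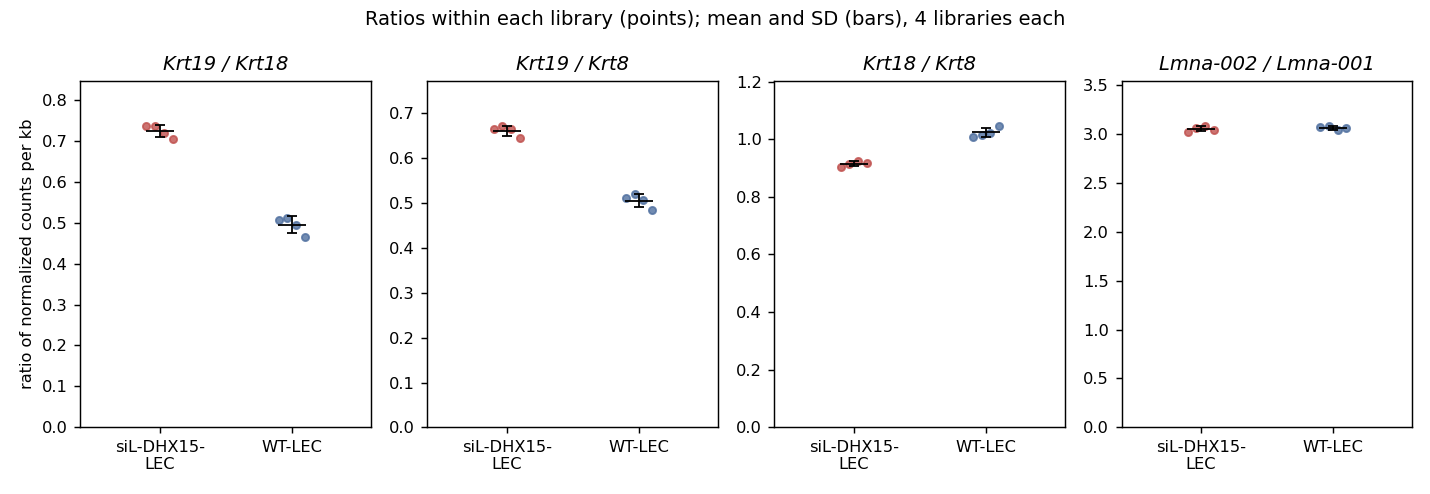
Ratios of normalized counts per kb within each library (points), siL-DHX15-LEC left of WT-LEC, with mean and SD of 4 libraries (bars). Krt19 over Krt18 and Krt19 over Krt8 lie higher and Krt18 over Krt8 lower in siL-DHX15-LEC with no overlap, and lamin C over lamin A (Lmna-002 over Lmna-001) lies near 3.05 in both.

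The lamin genes moved little. Lmnb2, the B-type lamin gene of lower level (chr10:80901203-80918245, minus strand, GRCm38), had 10858, 11147, 10727 and 10502 normalized counts in siL-DHX15-LEC, against 9982, 9241, 9596 and 9647 in WT-LEC. All silenced libraries were above all wild-type ones, by 1.12-fold (95% interval 1.06 to 1.19, log2 fold change 0.17, SE 0.036, adjusted p = 0.00463 by limma), and all 18 alternatives kept the call. Lmna had 112903, 119755, 119268 and 116421 normalized counts in siL-DHX15-LEC, against 113411, 98354, 107017 and 108487 in WT-LEC. The groups overlapped in 1 library, WT-LEC replicate 1, and the log2 fold change of 0.13 (95% interval 0.03 to 0.23, adjusted p = 0.0406 by limma) lost its call in 10 of 18 alternatives, among them edgeR on whole reads, equal totals and the omission of siL-DHX15-LEC replicate 1, 2 or 3 or of WT-LEC replicate 2, 3 or 4. The adjusted p-values were 0.0517 to 0.165 in those 10 and 0.0149 to 0.0468 in the other 8. Lmnb1, the other B-type lamin gene, had 20107, 20662, 20550 and 21151 normalized counts in siL-DHX15-LEC, against 21181, 19029, 19075 and 19644 in WT-LEC. Its log2 fold change of 0.06 (95% interval −0.02 to 0.15, adjusted p = 0.239 by limma) did not pass the test, was −0.0028 with equal totals, and passed without WT-LEC replicate 1 (adjusted p = 0.0415). The ratio of Lmnb1 to Lmnb2 per kb overlapped between conditions, at 2.27 ± 0.0801 in siL-DHX15-LEC and 2.43 ± 0.0765 in WT-LEC.

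**Figure D4:**
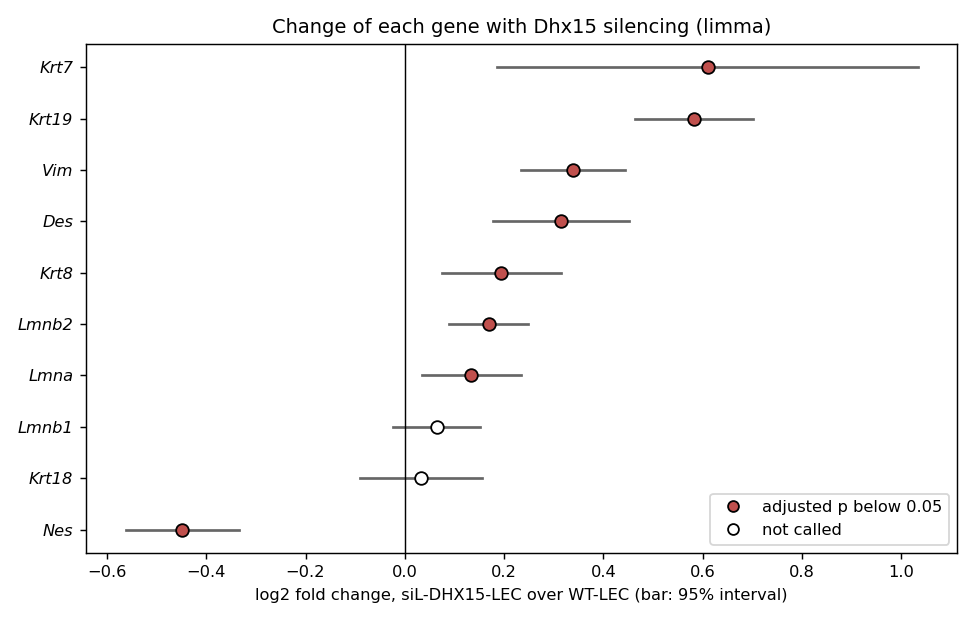
Log2 fold change of siL-DHX15-LEC over WT-LEC for each gene (point) with its 95% interval (bar) from limma, filled where the adjusted p was below 0.05. Krt19, Vim and Des lie well above 0, Nes lies at −0.45, and the intervals of Lmnb1 and Krt18 include 0.

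Within a condition the members tended to be high or low in the same libraries. Among wild-type libraries, WT-LEC replicate 1 held the highest value for 8 of the 10 genes and WT-LEC replicate 2 the lowest for 9. Among silenced libraries, siL-DHX15-LEC replicate 1, the one with the fewest reads, held the lowest value for 7. That library and WT-LEC replicate 1 are where Krt8 overlapped. These counts were not made over all genes, so whether the pattern is particular to the members is not known. In WT-LEC, replicate 1 also had the highest total of normalized counts (126931150) and replicate 2 the lowest (120698230). In siL-DHX15-LEC, replicate 1 had the highest total (131309870).

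Splicing within these genes was of interest because Dhx15 codes for a helicase that takes part in disassembling the spliceosome. Of the 36 isoforms 30 passed the filter and 9 were called, 8 higher and 1 lower, where 10.4% of 50198 isoforms were called (6.61% higher and 3.83% lower), and in 11 the conditions did not overlap, against 18.1% of all isoforms. At the stricter adjusted p of 0.001 none was called by limma (144 of 50198 isoforms, 0.287%), and edgeR at 0.05 also called 9. Lmna-001 and Lmna-002, not called in the main test, were called with DESeq2, with TMM scaling and without WT-LEC replicate 1. The called ones were Vim-001, Vim-006, Vim-004, Vim-003, Krt19-001, Krt19-002, Lmnb2-201 and Des-001, all higher, and Nes-001, lower, each in the direction of its gene. Vim-001, the full-length vimentin transcript, averaged 296796 in siL-DHX15-LEC and 228697 normalized counts in WT-LEC. Its log2 fold change was 0.38 (SE 0.045, adjusted p = 0.00224 by limma). Vim-004, annotated as a retained intron, averaged 25016 in siL-DHX15-LEC and 20366 in WT-LEC (log2 fold change 0.30, SE 0.042, adjusted p = 0.00403 by limma). The calls of Lmnb2-201 and Des-001 were lost in 8 and 11 of 18 alternatives, and that of Vim-006 without the variance trend and at 0.001.

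No member isoform passed the test of a changed share within its gene. None of 13 usages tested was called by limma (2 at an unadjusted p under 0.05, smallest adjusted p = 0.0600), where 10.5% of 17701 usages were called over all genes (5.07% higher and 5.4% lower). The 2 are from Vim. Vim-001 made up 69.6%, 69.2%, 71.5% and 70.2% of the gene in siL-DHX15-LEC, against 67.8% to 68.9% in WT-LEC. Vim-006, a shorter coding isoform, took 20.6% ± 0.893 in siL-DHX15-LEC against 21.8% ± 0.115 in WT-LEC (SD, n = 4 each). The shares of each did not overlap, but the differences are of 1 to 2 points. Isoform counts are estimates that divide shared reads, so these shares carry an error that the spread between libraries may not show.

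The split between lamin A and lamin C at the stretch printed above showed no detectable difference. Lmna-002, lamin C, made up 64.8%, 65.2%, 65.4% and 65.1% of Lmna counts in siL-DHX15-LEC, against 65.1%, 65.1%, 64.9% and 65.1% in WT-LEC. Lmna-001, the lamin A precursor, took 33.3% ± 0.142 in siL-DHX15-LEC and 33.2% ± 0.137 in WT-LEC (SD, n = 4 each). The log2 ratio of Lmna-001 to the rest of the gene differed by 0.0083 between conditions, with a 95% interval of −0.04 to 0.05 (adjusted p = 0.841 by limma). Per kb, lamin C transcripts exceeded lamin A transcripts 3.05 ± 0.0241-fold in siL-DHX15-LEC and 3.06 ± 0.0177-fold in WT-LEC. Lmna-003, whose coding sequence starts at another exon as in the germ-cell form lamin C2, had 0, 64.5, 7.90 and 8.51 normalized counts in siL-DHX15-LEC, against 9.27, 15.1, 18.8 and 22.5 in WT-LEC. A single silenced library, replicate 2, lay above the wild-type ones and the other 3 lay below them, and the log2 fold change of −0.95 (SE 1.09, adjusted p = 0.636 by limma) did not pass. Lmnb2-002, an isoform of Lmnb2 with an internal start as in lamin B3, averaged 42.2 in siL-DHX15-LEC and 34.2 in WT-LEC, with overlap.

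For the other genes the isoforms followed the gene. Krt19-001 took 82.3% ± 0.381 of Krt19 in siL-DHX15-LEC and 82.3% ± 0.762 in WT-LEC, with a 95% interval of −0.10 to 0.10 for the difference of the log2 ratio. Krt19-002, a transcript without a coding sequence, took most of the rest. Nes-001 took 77.5% ± 6.15 in siL-DHX15-LEC and 76.5% ± 3.54 in WT-LEC, with Nes-003, a coding isoform with 1 more exon, as the other main form. Des-001 took 79.0% ± 2.34 in siL-DHX15-LEC and 79.1% ± 0.986 in WT-LEC, beside the retained-intron form Des-003. At the level of Krt7 the estimates jumped between libraries, from 25.9% to 81.5% for Krt7-001 in siL-DHX15-LEC and from 0 to 91.7% in WT-LEC, so no split can be read there. Krt8 and Krt18 are listed with 1 isoform each.

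**Figure D5:**
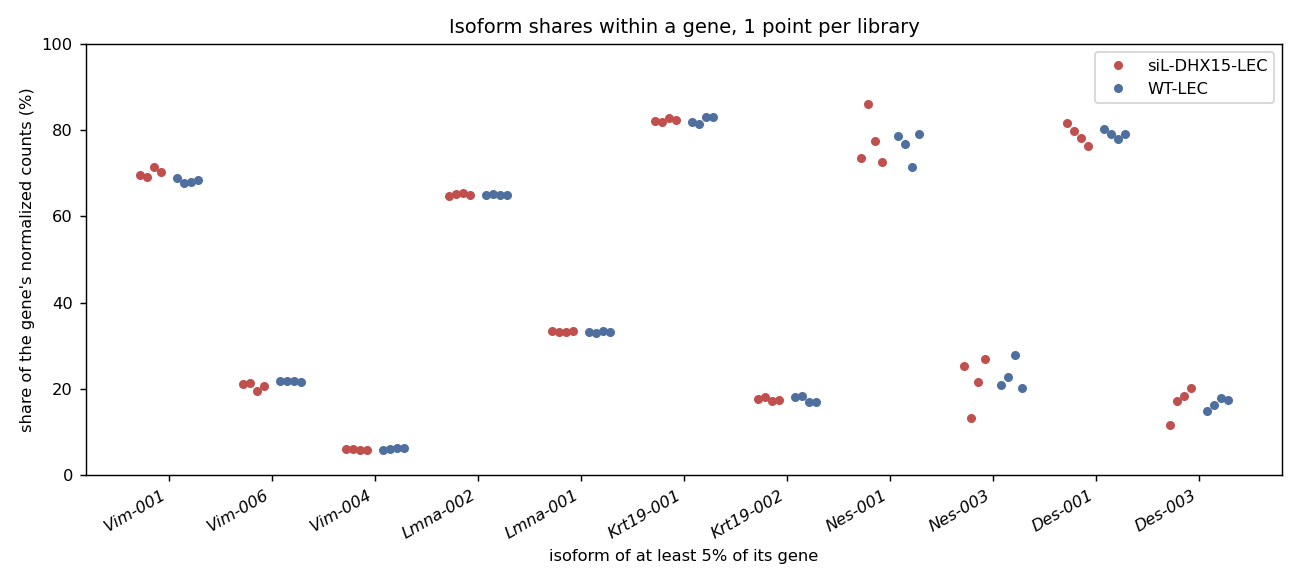
Share of each gene's normalized counts (%) held by its main isoforms, 1 point per library, siL-DHX15-LEC left of WT-LEC. Lmna-002 and Lmna-001 lie near 65% and 33% in all 8 libraries, Vim-001 lies 1 to 2 points higher in siL-DHX15-LEC, and the shares of Nes and Des isoforms spread most.

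Among 34 other intermediate filament genes 19 averaged under 10 normalized counts. Of the 15 tested 2 were higher (13.3%) and none lower, against 18.4% and 14.8% of all genes. With equal totals none was higher and 2, Krt10 and Krt36, were lower, where 1861 of 16502 genes were higher and 3897 lower. Prph, which codes for the neuronal filament protein peripherin, had a log2 fold change of 0.21 (384 ± 23.1 in siL-DHX15-LEC, 332 ± 11.2 in WT-LEC, SD, n = 4 each) and the keratin gene Krt78 one of 0.68 (34.4 ± 3.14 in siL-DHX15-LEC, 22.0 ± 7.38 in WT-LEC). Prph had an adjusted p of 0.0388 and Krt78 one of 0.0462 by limma, and both failed with equal totals. None was higher with DESeq2 or without siL-DHX15-LEC replicate 1, 2 or 3 or WT-LEC replicate 1, 2 or 4, and 1 was without siL-DHX15-LEC replicate 4 or WT-LEC replicate 3. The list's median was −0.02.

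Of 20 genes tested from a list of filament linker, desmosome and small heat shock genes, 5 were higher and 4 lower (median −0.03). These 25% and 20% lie near the 18.4% and 14.8% of all genes, and the other 11 did not pass. With equal totals 2 were higher and 6 lower, where 1861 of 16502 genes were higher and 3897 lower. Not all of the listed genes code for proteins that bind intermediate filaments. Perp, a desmosomal membrane protein gene, had 3386, 3390, 3369 and 3442 normalized counts in siL-DHX15-LEC, against 2705, 2610, 2386 and 2545 in WT-LEC (log2 fold change 0.41, SE 0.045, adjusted p = 8.74e-05 by limma). Ppl, which codes for the cytolinker periplakin, was at 4893 ± 623 in siL-DHX15-LEC and 7150 ± 573 in WT-LEC (log2 fold change −0.55, adjusted p = 0.000504 by limma). The small heat shock gene Hspb1, whose protein binds keratin and vimentin filaments, had a log2 fold change of −0.38 and the spectraplakin gene Macf1 one of −0.28, both lower with no overlap between conditions.

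Of 28 genes tested from a list of nuclear lamina partners and processing enzymes, 10 were higher and none lower (median 0.07) in the deposited scaling. These are 35.7% and 0%, against 18.4% and 14.8% of all genes. The 10 include Casc3 (log2 fold change 0.11, adjusted p = 0.0356 by limma), whose protein binds spliced RNA and is not a lamina partner. With equal totals 8 were higher and 2, Tor1aip1 and Zmpste24, lower, where 1861 of 16502 genes were higher and 3897 lower. Zmpste24, the protease that trims the lamin A precursor, was at 9170 ± 519 in siL-DHX15-LEC and 10030 ± 410 in WT-LEC (log2 fold change −0.13, adjusted p = 0.0505 by limma, and −0.20 with equal totals, adjusted p = 0.0083). Tor1aip1, Zmpste24, Krt10 and Krt36 were named after their values were seen. The higher ones included Syne3 (log2 fold change 0.23, adjusted p = 0.000672), Sun1 (0.23, adjusted p = 0.00193), Nrm (0.25, adjusted p = 0.00307) and Emd (0.21, adjusted p = 0.00327), all by limma. Syne3 and Sun1 code for nesprin-3 and SUN1 of the complex that links the nucleus to the cytoskeleton, with nesprin-3 reaching vimentin filaments through plectin, Nrm for nurim and Emd for emerin of the inner nuclear membrane. Sun1 had 13125, 12765, 12405 and 11834 normalized counts in siL-DHX15-LEC, against 11166, 10847, 10489 and 10148 in WT-LEC, with no overlap.

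Of 12 epithelial genes tested 1 was higher (8.33%) and none lower, against 18.4% and 14.8% of all genes. The 1 was Cdh1, which codes for E-cadherin. It had 3421, 3481, 3166 and 2920 normalized counts in siL-DHX15-LEC, against 2326, 2326, 2217 and 2080 in WT-LEC (log2 fold change 0.54, SE 0.061, adjusted p = 0.000113 by limma). Without siL-DHX15-LEC replicate 1 the list had 2 calls. Of 10 regulators of the mesenchymal state 2 were higher and 2 lower, 20% each way, near the share of all genes. The transcription factor gene Snai2 had a log2 fold change of 0.47 and Twist1 one of 0.14, Snai1 one of −0.29 and Prrx2 one of −0.19. With equal totals 1 was higher and 3 lower, Twist1 losing its call, and without siL-DHX15-LEC replicate 1 or WT-LEC replicate 4 the count of 4 fell to 2. Of 20 proliferation genes 5 were higher and 5 lower (3 and 7 with equal totals). The 5 each way are 25%, against 18.4% and 14.8% of all genes. With equal totals 1861 of 16502 genes were higher and 3897 lower. The smallest p-values were those of Tyms at −0.32, Mcm2 at 0.26, Mcm6 at 0.21 and Mcm3 at 0.17. That count of 10 fell to between 4 and 6 without siL-DHX15-LEC replicate 1, 2 or 3 or WT-LEC replicate 3 or 4.

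Markers of cell types that share these filaments moved as follows, where 18.4% of all genes tested were higher and 14.8% lower. Of 8 mesothelial markers tested 5 were lower and none higher, with summed levels of 33784 to 36769 in siL-DHX15-LEC and 39567 to 42067 normalized counts in WT-LEC. Most of that sum was Msln, at 22913 ± 1229 in siL-DHX15-LEC and 23374 ± 702 in WT-LEC (SD, n = 4 each). Msln did not pass the test (log2 fold change −0.03, adjusted p = 0.622 by limma). Upk3b, a uroplakin gene, had 4746, 4835, 4670 and 4564 normalized counts in siL-DHX15-LEC, against 7578, 6682, 7068 and 7036 in WT-LEC (log2 fold change −0.59, SE 0.043, adjusted p = 6.41e-06 by limma), and Wt1 a log2 fold change of −0.35. Of 6 cholangiocyte markers tested 2 were lower, Slc4a2 at −0.31 and Sox9 at −0.25, with sums of 33218 to 37041 in siL-DHX15-LEC and 38400 to 40734 in WT-LEC. Of 9 stellate and fibroblast markers 3 were lower, with Col1a1 at −0.26 and sums of 39284 to 40584 in siL-DHX15-LEC and 45883 to 46966 in WT-LEC. Lrat, which defines stellate cells, averaged 0.220 in siL-DHX15-LEC and 0.258 in WT-LEC. Of 7 smooth muscle markers 2 were higher, Actg2 at 1.07 and Myh11 at 0.75. The 3 lower were Acta2 at −0.25, Tagln at −0.39 and Cnn1 at −0.61. The smooth muscle sums were 16512 to 17744 in siL-DHX15-LEC and 18090 to 20116 in WT-LEC. Among the endothelial lists, Egfl7 and Pecam1 were higher (neither with equal totals) and Eng lower of 7 general markers tested. Gata4 was higher and Mrc1 lower of 4 sinusoidal markers. Both Pecam1 (37.0 in siL-DHX15-LEC, 25.2 in WT-LEC) and Mrc1 (31.5 in siL-DHX15-LEC, 84.0 in WT-LEC) had few normalized counts. The lymphatic markers Pdpn and Flt4 did not pass, although Pdpn was lower with equal totals (log2 fold change −0.14, adjusted p = 0.00987 by limma). Of 10 sinusoidal markers 6 averaged under 10 normalized counts, among them Stab2 (2.5 in siL-DHX15-LEC, 6.1 in WT-LEC). So did 5 of 7 lymphatic markers, among them Prox1 (5.9 in siL-DHX15-LEC, 11.4 in WT-LEC). Lyve1, on both lists, averaged 1.1 in siL-DHX15-LEC and 1.2 in WT-LEC. Of the leukocyte markers tested Csf1r was lower, and Ptprc, which marks all leukocytes, averaged under 1 normalized count in both conditions. Krt19, Vim and Des were higher in siL-DHX15-LEC, where the mesothelial, cholangiocyte, stellate and smooth muscle sums were lower. That only restates the comparison of the 2 conditions. The part of the marker changes in the filament results was not tested.

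Genes with the most similar pattern were looked up among 13487 genes with a mean of at least 50, by Pearson's r of log2 values over the 8 libraries. The 8 points share their condition, lane and scaling, so r is a description only. Vim and Krt19 had the same first gene, Aldh9a1 (r = 0.997 for Vim and 0.996 for Krt19), followed by Dctd and Tmem43 for Vim and by Cacnb3 and Serpinb1a for Krt19. Lmna and Krt8 were among each other's first 3 (r = 0.994), along with Ptrf and Smarcd1 for both. Nes was nearest to Akap12 (0.996), then Sertad4 and Ap1g1. Lmnb2 was nearest to Use1 (0.999), then Mfge8 and Gtf3a, and Des to B4galnt2 (0.993), then Tcta and Mt1. The genes without a call had Rrp7a (0.987), Lasp1 and Mien1 nearest to Krt18, and Rufy1 (0.981), Fam98b and Snap29 nearest to Lmnb1. Krt7, with the noisiest values, had Klrg2 (0.962), Gm10138 and Csad.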

How the data were processed

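RNA from 4 siL-DHX15-LEC and 4 WT-LEC libraries (500 ng, stranded poly-A protocol, paired reads of 76 bases) was sequenced and processed by the authors with STAR 2.5.2a on GRCm38, RSEM 1.2.28 with GENCODE M12, and DESeq2 1.18 size factors. The deposited table gives normalized counts per isoform, treated as a signal because they are not raw counts. The authors' mapping table gives each library's lane, its number of read pairs and percent mapped, unmapped and duplicate reads. Values were whole multiples of 1 read for 100% of entries (within 0.1 of a step), which gave whole reads for edgeR 4.0.16 (5640 genes called) and DESeq2 1.42.0 (5519 genes called) as alternatives. The count setting for strand is not given in the sources used here.

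Isoforms were summed per gene and log2(value + 1) was tested with limma 3.58.1 (trend, R 4.3.3) over features with a mean of at least 10, two-sided, with Benjamini-Hochberg adjustment over all of them. Fold changes are on that log2 scale and understate those of low genes. Calls are at an adjusted p of 0.05. Usage is the log2 ratio of an isoform to the rest of its gene, for isoforms of at least 5% of the gene. Intervals are at 95%. Lengths came from GENCODE M21 and matched 99.47% of isoforms with counts and 35 of the 36 described. Replicate libraries differed by more than sampling noise (chi-square per gene 7.95 to 115). Replicates are numbered in accession order, which pairs nothing. Scripts were tested on simulated data. Alternatives were the pseudocount, the filter, scaling by TMM or to equal totals, the tool, the isoform sum and leaving out each library.

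The members and gene lists were chosen with earlier results of these data known. Named were Dhx15, all members and their called or main isoforms, up to 4 called genes of smallest p per list, defining markers near 0, and the 3 most similar genes per member. Kdr, Trf, Msln, Myh11, Casc3, Pdpn, Flt4 and the isoforms Lmna-003 and Lmnb2-002 were named outside this rule after their values were seen.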

Additional observations from a re-analysis of the deposited data

Results flagged for a closer look

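Of 100 groups of 4 libraries examined over the member genes, their isoforms and the ratios, 4 had a library far from the other 3 by Dixon's criterion, where chance gives about 1 in 20. All 4 are minor isoforms. Des-002, a retained-intron form, had 42.5 normalized counts in siL-DHX15-LEC replicate 1 and 19.4 to 21.1 in the other siL-DHX15-LEC libraries. Lmnb2-001 had 218 in siL-DHX15-LEC replicate 4 and 92.2 to 107 in the others. Lmna-007 had 135 in WT-LEC replicate 1 and 89.8 to 93.7 in the others. Lmna-003 had 64.5 in siL-DHX15-LEC replicate 2 and 0 to 8.51 in the others. No member gene and no ratio had such a library.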

How the results depend on the processing

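Vim, Nes, Lmnb2, Krt19 and Des kept direction and call under all 18 alternatives each, and no usage was called under any of 13. The number of members called was 5 with equal totals and ranged from 5 to 8 when 1 library was left out, with the lowest without siL-DHX15-LEC replicate 3. There were 0 member isoforms called at an adjusted p of 0.001. With equal totals the log2 fold change was −0.0028 for Lmnb1, −0.035 for Krt18 and −0.0037 for Lmnb1-001, and the median over all genes was −0.08. Leaving out 1 library gave −0.018 to 0.069 for Krt18, −0.57 to 1.498 for Krt7-002, and for usages −0.027 to 0.022 for Krt19-001, −0.15 to 0.26 for Nes-001, −0.29 to 0.14 for Nes-003 and −0.086 to 0.072 for Des-001, which was 0.0027 with a pseudocount of 5. None of these passed the test in any setting, except Lmnb1 in 1. Isoforms called over the whole table were 5242, against 2638 without the variance trend, 8068 with DESeq2 and 2924 to 5901 when 1 library was left out. The cause was not tested. No paired analysis was possible because the labels give no replicate numbers. Ratios were added after seeing the data, and leaving out 1 library gave log2 differences of 0.52 to 0.57 for Krt19 over Krt18. Krt7 and the minor isoforms had few counts.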
